A study of Homo sapiens with 15 samples.

Results

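The genes described here are the SR proteins, the heterogeneous nuclear ribonucleoproteins (hnRNPs), the CLK kinases and the TRA2 proteins, which together set much of the pattern of alternative splicing in human cells. They were taken by gene symbol: SRSF or HNRNP followed by a family suffix, CLK1 to CLK4, TRA2A and TRA2B. Of 26485 gene symbols in the count table, 47 met this rule: 12 SRSF, 25 hnRNP, 4 CLK and 2 TRA2 symbols, and 4 hnRNP pseudogene symbols. After removal of genes with too few reads, 40 of the 47 could be tested. All 12 SRSF, all 4 CLK and both TRA2 genes passed, as did 21 hnRNP genes and the pseudogene HNRNPA1P10. The 7 that did not pass were HNRNPCL1 to HNRNPCL4, HNRNPA3P1, HNRNPA1P33 and HNRNPKP3. Counts of members below refer to the 39 tested protein-coding symbols.

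Bulk RNA-seq was collected from U937 and ML1, a pair of established human cell lines labelled as acute myeloid leukemia, in 5 groups of 3 libraries. U937 cells received 10 nM prexasertib with 350 nM LSN622666, 10 nM prexasertib, or diluent. ML1 cells received 10 nM prexasertib or diluent. Every group, diluent included, also contained 5 µM Q-VD-OPh, a broad caspase inhibitor, and was treated for 24 h. Prexasertib inhibits the checkpoint kinase CHK1, while LSN622666 is known here by its code name alone. There was no group with LSN622666 alone and no combination group in ML1, so the effect of LSN622666 could be read only in U937 and only on top of prexasertib. Each line is a single cell line, and the labels do not say whether the 3 libraries of a group came from separate cultures, so p-values measure the spread between these libraries.

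SR proteins bind exonic enhancers through RNA recognition motifs and recruit the spliceosome through a domain rich in arginine and serine, whereas many hnRNPs bind silencers and repress nearby splice sites. CLK kinases phosphorylate the arginine and serine rich domain in the nucleus and release SR proteins from storage in speckles. Many genes of these families limit their own output by including an exon with an early stop codon or by retaining introns, which sends the transcript to nonsense-mediated decay or holds it in the nucleus. A count per gene pools productive, decaying and intron-retaining forms, and these could not be separated.

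In the GENCODE v29 annotation (GRCh38), 30 of the 39 tested members (76.9%) had at least 1 transcript typed as a nonsense-mediated decay target, against 5717 of 14092 tested protein-coding genes (40.6%). The share was 12 of 12 for SRSF genes, 13 of 21 for hnRNP genes, 3 of 4 for CLK genes and 2 of 2 for TRA2 genes. The tested members had a median of 11 annotated transcripts, against 7 for all tested protein-coding genes, and this number was not matched. For 4 SRSF genes called lower with the combination than with prexasertib in U937, 1 annotated decay exon each is shown. The bases run from the start of the exon to the annotated stop codon, which is in capitals. The exons shown are not the only ones annotated for SRSF3, SRSF4 and SRSF7, and their use was not measured. They lie in introns of the productive transcripts of SRSF3 (chr6:36599821-36599854, plus strand, 34 bases of a 456-base exon), SRSF7 (chr2:38749152-38749173, minus strand, 22 bases of a 276-base exon), SRSF4 (chr1:29160018-29160058, minus strand, 41 bases of a 195-base exon) and SRSF6 (chr20:43459153-43459304, plus strand, 152 bases of a 268-base exon).
SRSF3: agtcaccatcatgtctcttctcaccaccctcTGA
SRSF7: ggcagaaaatttgagacggTGA
SRSF4: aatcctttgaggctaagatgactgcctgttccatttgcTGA
SRSF6: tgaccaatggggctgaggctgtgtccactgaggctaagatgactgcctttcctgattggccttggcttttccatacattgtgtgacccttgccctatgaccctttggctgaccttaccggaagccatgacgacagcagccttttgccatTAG
Whether these exons were in the annotation used for counting is not given in the sources used here.

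The promoters of CLK1 and CLK4, kinase genes called in both U937 prexasertib comparisons, are shown with that of SRSF3, an SR protein gene, from 250 bases before to 50 bases after the RefSeq start (GRCh38.p14). Capitals mark the GC box GGGCGG, the E-box CACGTG, the CCAAT box and the TATA box TATAAA, searched on both strands. The windows are chr2:200864609-200864908 (CLK1, minus strand), chr5:178627001-178627300 (CLK4, minus strand) and chr6:36594112-36594411 (SRSF3, plus strand).
CLK1: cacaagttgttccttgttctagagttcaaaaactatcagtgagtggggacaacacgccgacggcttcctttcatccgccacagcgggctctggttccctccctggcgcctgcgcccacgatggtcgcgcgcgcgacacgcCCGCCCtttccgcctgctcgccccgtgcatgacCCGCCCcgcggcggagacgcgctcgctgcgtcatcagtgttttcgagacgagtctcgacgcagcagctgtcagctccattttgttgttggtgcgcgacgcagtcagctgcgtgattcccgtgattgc
CLK4: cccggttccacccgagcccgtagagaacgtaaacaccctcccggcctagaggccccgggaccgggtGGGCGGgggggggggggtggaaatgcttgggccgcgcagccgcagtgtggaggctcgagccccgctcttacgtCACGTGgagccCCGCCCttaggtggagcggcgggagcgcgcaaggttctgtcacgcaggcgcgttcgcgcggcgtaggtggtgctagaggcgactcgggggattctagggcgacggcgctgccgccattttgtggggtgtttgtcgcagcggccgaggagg
SRSF3: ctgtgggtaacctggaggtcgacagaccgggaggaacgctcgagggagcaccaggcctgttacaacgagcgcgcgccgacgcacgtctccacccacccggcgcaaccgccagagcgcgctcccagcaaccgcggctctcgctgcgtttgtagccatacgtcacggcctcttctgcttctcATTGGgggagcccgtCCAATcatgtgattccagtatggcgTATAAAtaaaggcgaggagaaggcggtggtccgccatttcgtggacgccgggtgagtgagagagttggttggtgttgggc
The RefSeq table held promoters of 39 members, of which 36 are tested members and HNRNPCL1, HNRNPCL2 and HNRNPCL4 are not. A GC box was present in 25 of these 39 promoters (64.1%), against 44.6% of 27305 RefSeq promoters, and an E-box in 9 of 39 (23.1%), against 7.43%. A CCAAT box was present in 18 member promoters (46.2%), against 35.7%, and a TATA box in 5 (12.8%), against 12%. The CLK1 window held GC boxes, the CLK4 window held GC boxes and an E-box, and the SRSF3 window held CCAAT boxes and a TATA box. The CRE letters TGACGTCA and the AP-1 letters TGANTCA were in 0 of the 39 member windows, against 1.98% and 7.76% of all promoters. The 27305 promoters were those of all RefSeq symbols, not only of genes tested here, and GC content was not matched. Matches describe the letters in these windows only.

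Library totals ran from 49011222 to 87301014 counts, and levels are given in CPM, counts divided by library sizes scaled by TMM. The members made up 1.35 ± 0.125% of all counts in the combination group, 1.51 ± 0.0929% in the prexasertib group and 1.55 ± 0.0917% in the diluent group of U937, and 1.25 ± 0.0306% in the prexasertib group and 1.81 ± 0.0608% in the diluent group of ML1 (SD, n = 3 each). Replicate 1 was the lowest library of its group for 34 of 39 members in the combination group, 27 in the prexasertib group and 32 in the diluent group of U937. U937 prexasertib replicate 2 was the highest for 19 members and had 21023 genes with a count, the most of any library. Of 14 myeloid genes, 13 were above 5 CPM in each of the 5 groups. Of 14 markers of other cell types, 2 were above 5 CPM in each U937 group and 1 in each ML1 group.

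The first question was what LSN622666 did to these genes in U937 cells that also received prexasertib. CLK1, CLK4, TRA2A and the SR proteins SRSF3, SRSF4, SRSF6, SRSF7 and SRSF10 fell, as did HNRNPF and HNRNPA1L2. Of 39 members, 10 fell and 0 rose at an adjusted p under 0.05 in edgeR's quasi-likelihood test. That fit did not use the replicate numbers. Over all 17243 tested genes 29% were called, with 17.1% lower and 11.9% higher, beside 25.6% of the members lower. By unadjusted p under 0.05, 15 members were lower and 0 higher. TRA2B, with the largest p of these 15 (0.04), ranked 6563 by p among the 17243 genes. At least that many genes thus met this rule in either direction, so the 15 are no sign of a difference from all genes. DESeq2 called 11 members lower and 0 higher, beside 3121 of 23300 genes lower and 2396 higher. The median log2 fold change of the 39 members was -0.16, against 0.01 for all tested genes, and 28 of 39 were below 0 (71.8%), against 49.3% of all genes. By family, 5 of 12 SRSF genes, 2 of 4 CLK genes and 1 of 2 TRA2 genes fell, and 2 of 21 hnRNP genes did.

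**Figure D1:**
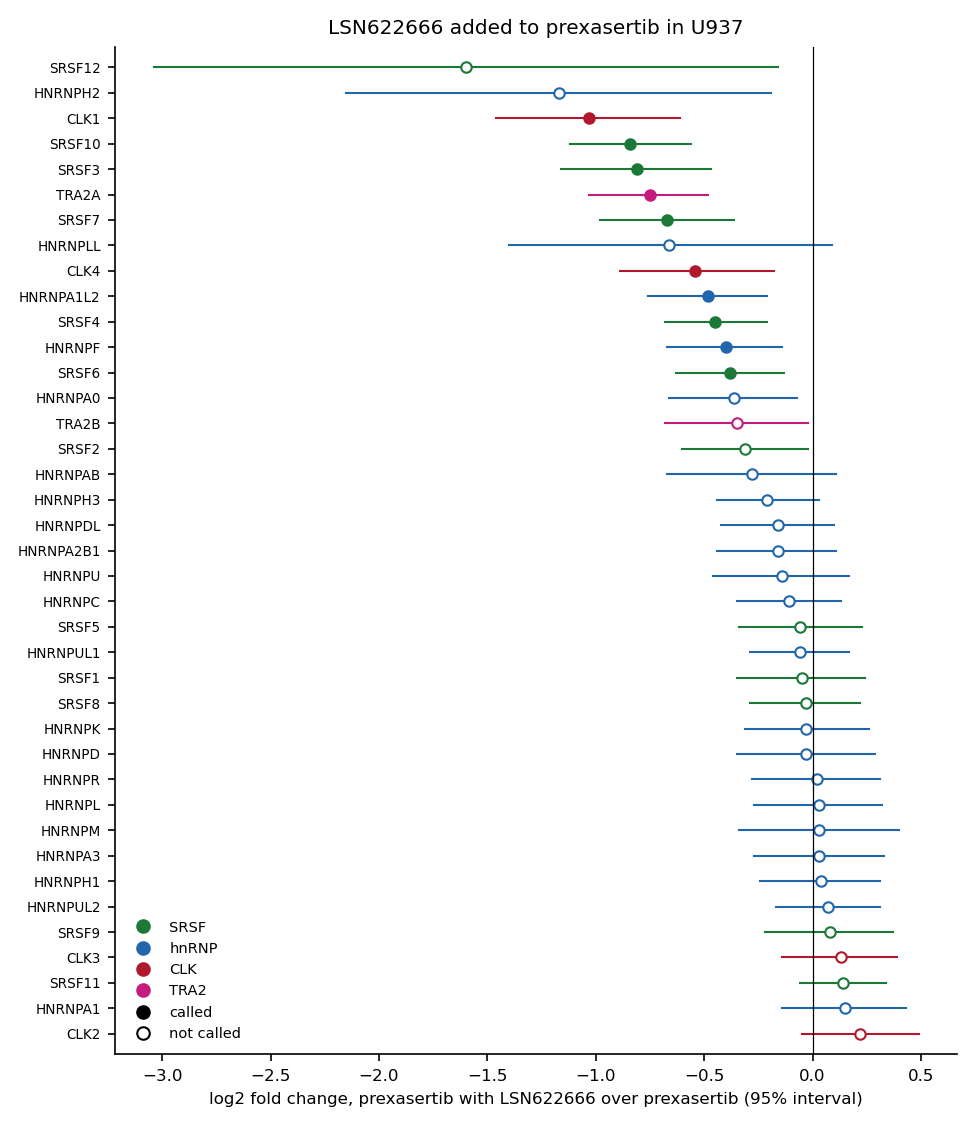
Log2 fold change of the 39 tested protein-coding members, prexasertib with LSN622666 over prexasertib in U937, with 95% intervals. Filled points are the 10 called members, all below 0, and they include 2 of 21 hnRNP genes.

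CLK1, a kinase of SR proteins whose own pre-mRNA is alternatively spliced, had 71.4, 80.1 and 76.1 CPM in the combination libraries, against 122, 219 and 125 CPM in the prexasertib libraries. All 3 combination libraries were below all 3 prexasertib libraries, and the prexasertib group was spread by its replicate 2. The log2 fold change was -1.03 ± 0.20 (SE; adjusted p = 0.0011), and without U937 prexasertib replicate 2 it was -0.70 (adjusted p = 0.006). CLK4, the family member closest to CLK1, had 18.7, 25.1 and 22.6 CPM with the combination, against 28.5, 41 and 26.7 CPM with prexasertib. Its log2 fold change was -0.54 ± 0.17 (adjusted p = 0.024), a call that did not hold for every set of libraries. The change was -0.31 (adjusted p = 0.17) without prexasertib replicate 2, -0.42 (0.1) without combination replicate 1 and -0.55 (0.057) without combination replicate 3.

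CLK2 and CLK3, the other two kinases of the family, did not pass the test, with log2 fold changes of 0.22 (95% interval -0.05 to 0.49) and 0.13 (-0.14 to 0.39). CLK2 had 105, 116 and 107 CPM in combination libraries, against 80.7, 112 and 89.6 CPM in prexasertib libraries. CLK3 had 118, 129 and 126 CPM, against 105, 130 and 107 CPM. The groups overlapped for both genes. Without prexasertib replicate 2, CLK2 was called higher (0.37, adjusted p = 0.048).

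**Figure D2:**
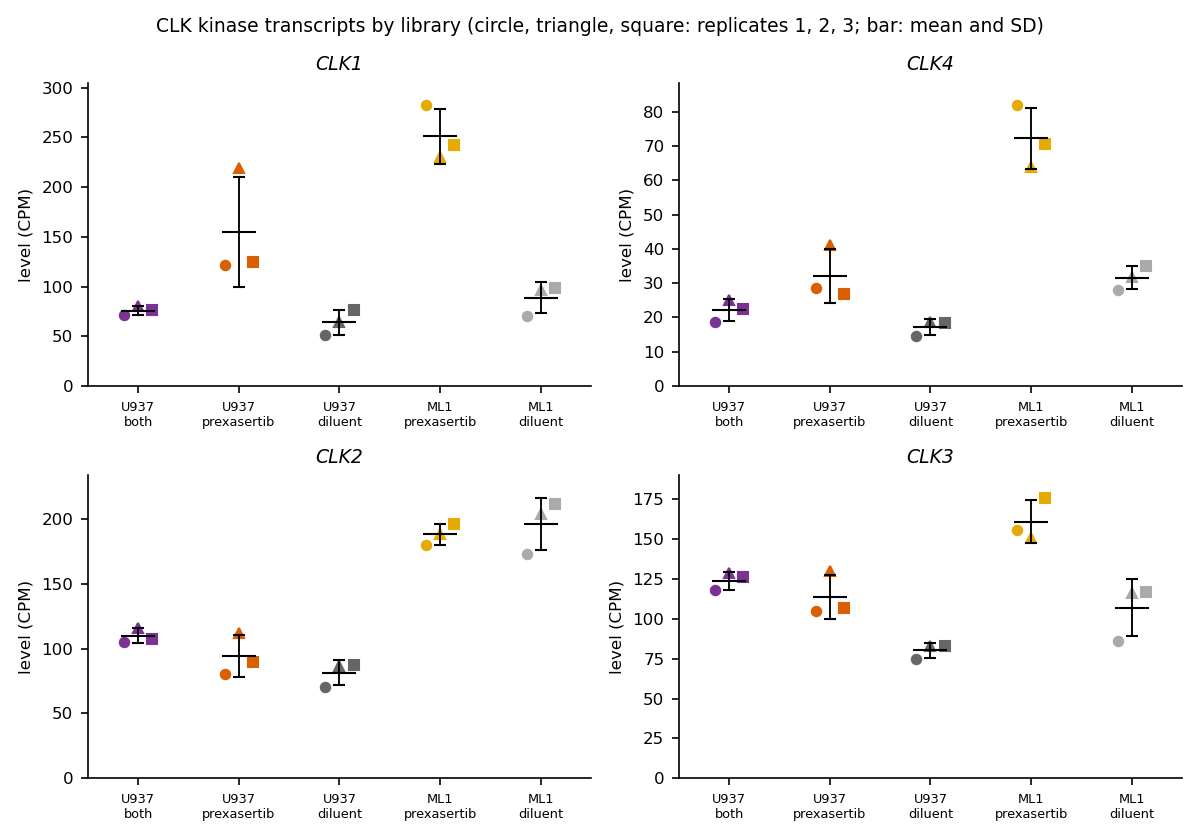
Levels of the 4 CLK genes in CPM in each library (points) with the group mean and SD (bars, n = 3), in 5 groups; both means prexasertib with LSN622666. CLK1 and CLK4 are high with prexasertib in both lines and lower in the U937 combination group, and CLK3 is above diluent in all 3 groups that contain prexasertib.

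Among the SR proteins, SRSF10, which represses splicing when it is dephosphorylated, had 108, 155 and 132 CPM with the combination, against 223, 274 and 212 CPM with prexasertib. It had the smallest adjusted p of the members, with a log2 fold change of -0.84 ± 0.13 (adjusted p = 0.00026). SRSF3, a small SR protein that also acts in mRNA export, had 332, 561 and 502 CPM, against 747, 977 and 726 CPM. The groups did not overlap, although combination replicate 1 was far below the other two libraries of its group. SRSF3 fell by 0.81 ± 0.16 on the log2 scale (adjusted p = 0.0015), and by 0.61 (adjusted p = 0.0066) without combination replicate 1.

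SRSF7, the close relative of SRSF3 with a zinc knuckle, had 139, 225 and 199 CPM with the combination, against 266, 330 and 301 CPM with prexasertib. Its log2 fold change was -0.67 ± 0.15 (adjusted p = 0.0028), and the groups did not overlap. SRSF4, a long SR protein with a pair of RNA recognition motifs, had 134, 170 and 159 CPM, against 209, 211 and 212 CPM. The prexasertib libraries of SRSF4 lay close together, and all 3 combination libraries were below them (-0.45 ± 0.11, adjusted p = 0.0067). SRSF6, of the same structural type, had 274, 294 and 267 CPM, against 374, 388 and 323 CPM (-0.38 ± 0.12, adjusted p = 0.024). The SRSF6 call was lost without prexasertib replicate 1 (adjusted p = 0.064) or 2 (0.098), without combination replicate 1 (0.063) or 3 (0.087), and with upper-quartile scaling (0.051).

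TRA2A and TRA2B are SR-like activators that bind GA-rich exonic enhancers. TRA2A had 41.8, 63.4 and 54.6 CPM with the combination, against 83.7, 99.1 and 86.6 CPM with prexasertib. All 3 combination libraries were lower, and the log2 fold change was -0.75 ± 0.13 (adjusted p = 0.00051). TRA2B had 116, 194 and 167 CPM, against 177, 218 and 212 CPM, and the groups overlapped (-0.35 ± 0.16, adjusted p = 0.10). Libraries with the same replicate number deviated together in this comparison, and a fit with the replicate number as a block called TRA2B lower (-0.37, adjusted p = 0.0083). It was also called without combination replicate 2 (-0.51, adjusted p = 0.028). The blocked fit called 15 members lower: the same 10 with HNRNPA0, HNRNPAB, HNRNPH2, SRSF2 and TRA2B. In that fit 22.2% of all tested genes were lower, against 17.1% without the block.

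**Figure D3:**
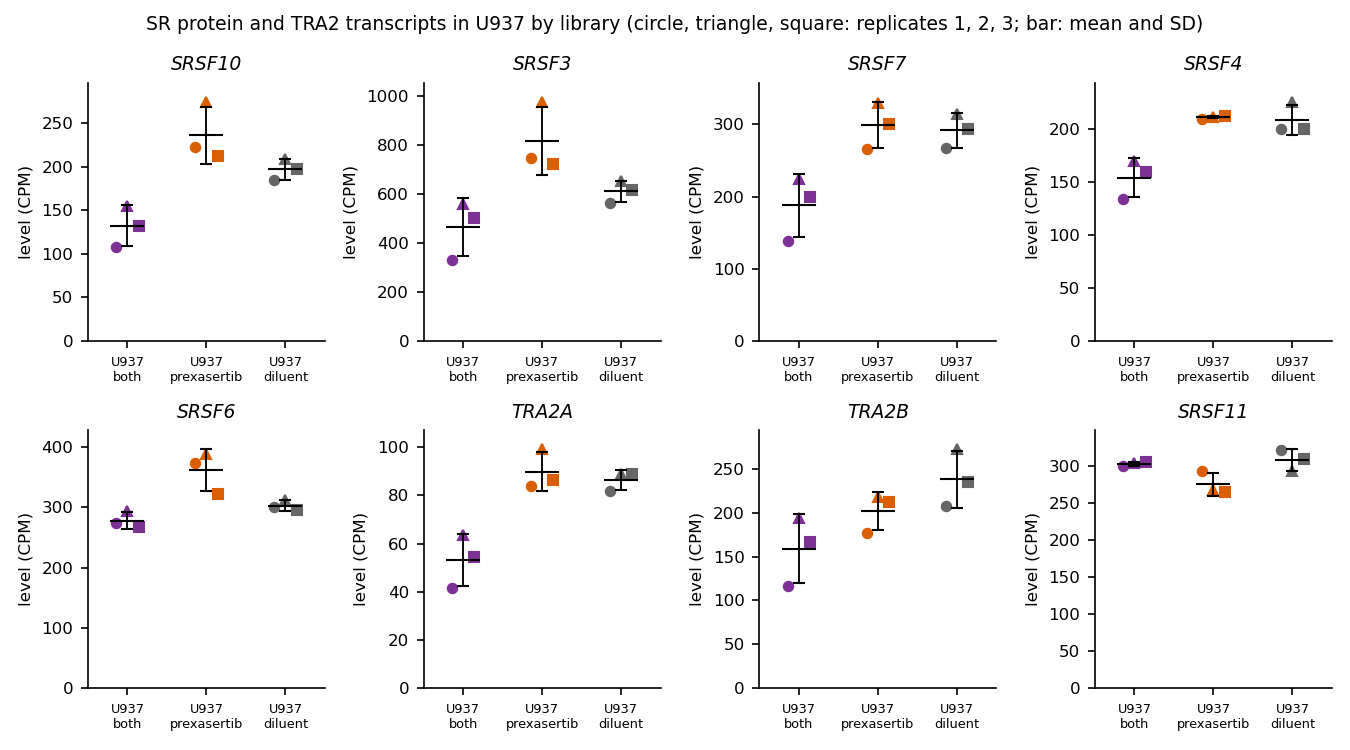
Levels in CPM of 6 SRSF genes and both TRA2 genes in the U937 libraries (points) with the group mean and SD (bars, n = 3); both means prexasertib with LSN622666. For SRSF10, SRSF3, SRSF7, SRSF4, SRSF6 and TRA2A the 3 combination libraries lie below the 3 prexasertib libraries, while the TRA2B groups overlap and SRSF11 was not called (0.14).

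The other SR proteins did not pass. SRSF1, the founding member of the family, had 364, 460 and 444 CPM with the combination, against 390, 431 and 494 CPM with prexasertib (-0.05, 95% interval -0.35 to 0.24). SRSF2, which binds both C-rich and G-rich enhancers, was at -0.31 (adjusted p = 0.099). SRSF5, SRSF8, SRSF9 and SRSF11 lay between -0.06 and 0.14. SRSF12, an antagonist of SR proteins in human cells, had under 1 CPM in each U937 library and was at -1.60 (adjusted p = 0.089).

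Of the 21 tested hnRNP genes, HNRNPF and HNRNPA1L2 fell. HNRNPF, which binds runs of G, had 284, 370 and 338 CPM with the combination, against 394, 466 and 451 CPM with prexasertib (-0.40 ± 0.12, adjusted p = 0.023). HNRNPA1L2, a copy of HNRNPA1 without introns, had 20.4, 25.3 and 23.6 CPM, against 28.2, 37.4 and 31.3 CPM (-0.48 ± 0.13, adjusted p = 0.011). Reads of HNRNPA1L2 may be shared with HNRNPA1, which was at 0.15 (adjusted p = 0.43), so its value is uncertain. Neither call held for every set of libraries. HNRNPF was lost without prexasertib replicate 2 (adjusted p = 0.088) or 3 (0.052) and without combination replicate 1 (0.11) or 3 (0.055), and HNRNPA1L2 without prexasertib replicate 2 (0.073) or combination replicate 1 (0.059).

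The other 19 tested hnRNP genes were not called between the combination and prexasertib alone. HNRNPA1, a repressor that binds exonic silencers, had 990, 1220 and 1310 CPM, against 991, 953 and 1240 CPM. HNRNPA2B1, its close relative, had 1060, 1410 and 1390 CPM, against 1320, 1370 and 1630 CPM (-0.16, 95% interval -0.44 to 0.11). HNRNPK, HNRNPD, HNRNPL, HNRNPM, HNRNPR, HNRNPA3, HNRNPH1 and HNRNPUL2 had log2 fold changes from -0.03 to 0.07. HNRNPAB, HNRNPH3, HNRNPDL, HNRNPU, HNRNPC and HNRNPUL1 lay lower, from -0.28 to -0.06. HNRNPA0, of the A/B type, had 165, 216 and 196 CPM, against 216, 271 and 255 CPM (-0.36, adjusted p = 0.058). HNRNPH2, under 1 CPM, and HNRNPLL, under 1 CPM in U937, were not called.

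Of the 10 members that fell, 6 stayed called when any 1 of the 6 libraries was left out: CLK1, SRSF10, SRSF3, TRA2A, SRSF7 and SRSF4. The count was 6 without prexasertib replicate 2 or without combination replicate 1, and 6 in a fit to these 2 groups alone. None of the 10 shares more than 8.6% of its annotated exon length with another gene. In bulk RNA a lower level per gene and fewer cells that express it cannot be told apart. Of the 14 myeloid genes, 1 rose between the same groups, CSF3R (0.73, adjusted p = 0.0074). The summed level of the markers of other cell types was 59 to 66.5 CPM with the combination and 44.1 to 65.6 CPM with prexasertib, with 6 of 14 at 0 in each group. Of 6 that could be tested, 1 rose and 1 fell, and their part in the result was not tested.

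The combination was then set against diluent, with the same combination libraries as above. Here 7 members fell and 2 rose, 23.1% of 39, against 11% of all tested genes called (4.11% lower and 6.88% higher). TRA2A fell by 0.70 ± 0.13 on the log2 scale (adjusted p = 0.0035) to the levels given above, against 81.9, 88.9 and 88.9 CPM with diluent. SRSF7 fell by 0.64 ± 0.15 (adjusted p = 0.012), against diluent levels of 267, 315 and 294 CPM. SRSF10 fell by 0.58 ± 0.13 (adjusted p = 0.011), against 185, 209 and 197 CPM. These 3 genes were thus below diluent as well as below prexasertib alone, and their libraries did not overlap with diluent. The same held for SRSF4 (-0.43 against diluent, adjusted p = 0.022). The SRSF10 call was lost without combination replicate 1 (adjusted p = 0.051).

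TRA2B also fell against diluent (-0.58 ± 0.16, adjusted p = 0.026), with diluent levels of 207, 272 and 235 CPM. That call was lost without diluent replicate 2 (0.094) or 3 (0.052) or combination replicate 1 (0.095). SRSF4 (-0.43), SRSF2 (-0.46) and HNRNPA2B1 (-0.51) completed the 7. The SRSF4 call was lost without diluent replicate 2 (0.074) or combination replicate 1 (0.088). The HNRNPA2B1 call was lost without diluent replicate 2 (0.069) or 3 (0.057) or combination replicate 1 (0.089), and the SRSF2 call without those libraries (0.14, 0.084 and 0.15) or combination replicate 3 (0.06). CLK3 was called higher (0.63 ± 0.13, adjusted p = 0.0051), with 118, 129 and 126 CPM in the combination group and 74.7, 82.9 and 83 CPM in the diluent group. CLK2 was called higher as well (0.43 ± 0.13, adjusted p = 0.041), but not when any single library was left out, with adjusted p from 0.072 to 0.14.

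CLK1 and CLK4 were not called between the combination and diluent. CLK1 had 51.4, 64.7 and 76.6 CPM with diluent, which overlapped the combination libraries (0.24, 95% interval -0.18 to 0.66). CLK4 had 14.7, 18.8 and 18.4 CPM with diluent and was at 0.36 (adjusted p = 0.17). SRSF3 was at -0.40 (adjusted p = 0.12) and SRSF6 at -0.12 (adjusted p = 0.53) against diluent. The count of members lower against diluent was 12 when diluent replicate 1 was left out. It was 3 or 4 when diluent replicate 2 or 3 was, and 2 when combination replicate 1 was. With DESeq2 it was 16, and 21 in a fit with the replicate block. Calls over all genes were more numerous too, with 1433 genes lower by DESeq2 and 2065 with the block, against 709 in the fit reported here.

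In U937 cells CLK1, CLK4 and CLK3 were higher with prexasertib alone than with diluent, in libraries shared with the comparisons above. CLK1 rose by 1.28 ± 0.20 on the log2 scale (adjusted p = 0.00024), CLK4 by 0.89 ± 0.17 (adjusted p = 0.0011) and CLK3 by 0.51 ± 0.13 (adjusted p = 0.007), each with prexasertib libraries above all diluent libraries. The CLK3 call was lost without prexasertib replicate 2 (0.38, adjusted p = 0.055). CLK2 was at 0.21 (adjusted p = 0.22). In all, 5 members rose and 3 fell, 20.5% of 39, against 31.1% of all genes called (18.3% higher and 12.8% lower). The others that rose, SRSF12 and HNRNPLL, were at most 0.943 and 0.502 CPM and are named after their values were seen. The HNRNPLL groups overlapped, and its call was lost without diluent replicate 1 (adjusted p = 0.16) or 2 (0.12) or prexasertib replicate 2 (0.2). No other SRSF gene and neither TRA2 gene passed: SRSF3 was at 0.42 (adjusted p = 0.059), SRSF10 at 0.26 (0.14) and TRA2A at 0.05 (0.78).

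The 3 members that fell with prexasertib in U937 were hnRNPs. HNRNPA1 had 991, 953 and 1240 CPM, against 1490, 1460 and 1500 CPM with diluent (-0.48 ± 0.13, adjusted p = 0.013). HNRNPA3, another repressor of the A/B type, was at -0.45 (adjusted p = 0.024) and HNRNPR, an RNA-binding hnRNP with several recognition motifs, at -0.45 (adjusted p = 0.023). The HNRNPR groups overlapped, with 274, 283 and 355 CPM with prexasertib and 352, 475 and 422 CPM with diluent. All 3 calls were lost without prexasertib replicate 2 (adjusted p = 0.056, 0.087 and 0.072), and HNRNPA3 and HNRNPR also without prexasertib replicate 1 (0.06 and 0.058) or diluent replicate 2 (0.061 and 0.075). The count of members higher was 3 without prexasertib replicate 2. The count of members lower was 0 when prexasertib replicate 2 was left out and 1 when prexasertib replicate 1 or diluent replicate 2 was. It was 6 when diluent replicate 1 was left out and 8 when prexasertib replicate 3 was.

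In ML1 cells most hnRNP genes fell with prexasertib, and CLK1, CLK4 and CLK3 rose. Of 39 members, 24 fell and 5 rose, 74.4%, against 48.8% of all genes called (23.5% lower and 25.3% higher). The median log2 fold change was -0.42, against 0.02 for all tested genes. Of 21 hnRNP genes 17 fell and 0 rose, and of 12 SRSF genes 6 fell and 2 rose. With any 1 library left out, 20 to 22 members fell. Of the 14 myeloid genes 8 rose and 4 fell in the same comparison, and the summed level of markers of other cell types was 224 to 303 CPM with prexasertib, against 53.9 to 63.7 CPM with diluent, with 5 and 8 of the 14 at 0. Of 6 of these markers that could be tested, 2 rose and 2 fell. PECAM1, an endothelial marker that myeloid cells also express, was among those that rose (2.35, adjusted p = 1.1e-08). Their part in the result was not tested.

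HNRNPR had 146, 146 and 150 CPM in prexasertib-treated ML1 cells, against 417, 379 and 365 CPM with diluent. This was the lowest log2 fold change of the members in ML1, -1.39 ± 0.14 (adjusted p = 3.6e-07). HNRNPUL1, a relative of HNRNPU linked to the DNA damage response, had 421, 472 and 485 CPM, against 892, 868 and 820 CPM (-0.90 ± 0.11, adjusted p = 2.8e-06). HNRNPA1 had 1040, 1230 and 1210 CPM, against 2010, 2280 and 2140 CPM (-0.89 ± 0.14, adjusted p = 3.3e-05). HNRNPA3 fell by 0.88 ± 0.14 (adjusted p = 6.6e-05). None of these groups overlapped, and the 4 calls held without any 1 library.

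Of the kinases in ML1, CLK1 had 282, 230 and 242 CPM with prexasertib, against 70.6, 96.2 and 98.9 CPM with diluent (1.51 ± 0.20, adjusted p = 7.8e-06). CLK4 had 81.8, 64 and 70.7 CPM, against 28.1, 31.8 and 34.9 CPM (1.19 ± 0.17, adjusted p = 1.4e-05). CLK3 rose by 0.60 ± 0.13 (adjusted p = 0.00077), while CLK2 had 180, 188 and 196 CPM, against 173, 204 and 211 CPM (-0.06, adjusted p = 0.73). SRSF8, which derives from a retrocopy of SRSF2, rose by 0.47 ± 0.12 (adjusted p = 0.0036), and SRSF12 rose to at most 1.86 CPM with prexasertib, against at most 0.237 CPM with diluent. TRA2B fell by 0.55 ± 0.16 (adjusted p = 0.0075), while TRA2A was at 0.20 (adjusted p = 0.21).

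**Figure D4:**
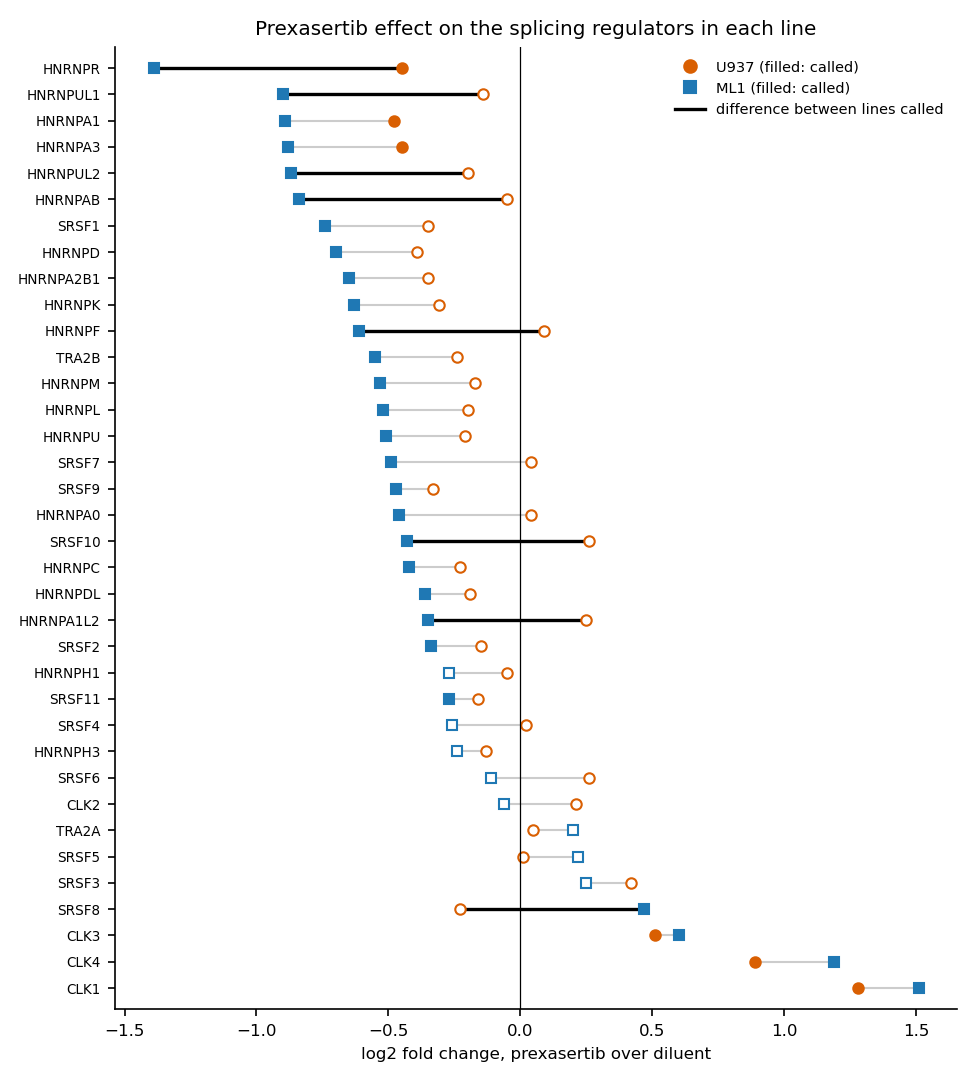
Log2 fold change of 36 members with prexasertib over diluent in U937 (circles) and ML1 (squares), filled where called; black lines join members whose difference between lines was called. SRSF12, HNRNPH2 and HNRNPLL are not drawn because of low counts. Black lines mark 6 hnRNP genes, SRSF10 and SRSF8, and CLK1, CLK4 and CLK3 lie above 0 in both lines.

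Whether the response to prexasertib differed between U937 and ML1 was tested directly as U937 minus ML1. It was positive for 7 members and negative for 1, 20.5% of 39, against 24.7% of all genes called (12.4% positive and 12.3% negative). Of the positive ones 6 were hnRNPs. HNRNPR differed by 0.94 ± 0.20 (adjusted p = 0.0019), HNRNPUL1 by 0.77 ± 0.16 (adjusted p = 0.0013) and HNRNPF by 0.71 ± 0.18 (adjusted p = 0.0066). HNRNPAB, a relative of HNRNPD, differed by 0.79 ± 0.26 (adjusted p = 0.034), a call that did not hold for every set of libraries. It was lost without ML1 diluent replicate 1 or 2 (0.069 and 0.071), ML1 prexasertib replicate 1 or 3 (0.083 and 0.054), U937 diluent replicate 1 or 3 (0.099 and 0.074) or U937 prexasertib replicate 2 or 3 (0.077 and 0.08). SRSF8 was the negative one (-0.71 ± 0.17, adjusted p = 0.0054). No difference was detected for CLK1 (-0.23, 95% interval -0.82 to 0.36), CLK4 (-0.30, -0.80 to 0.20), CLK3 (-0.09, -0.47 to 0.28) or CLK2 (0.27, -0.11 to 0.65), and these intervals allow differences of either sign.

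The lines also differed before prexasertib. With diluent, 4 members were higher and 17 lower in U937 than in ML1, 53.8% of 39, against 61.4% of all genes called (32% higher and 29.4% lower). HNRNPLL, a regulator of splicing in lymphocytes, had 0.0858, 0.108 and 0.299 CPM in U937, against 24, 27.6 and 26.5 CPM in ML1 (-7.39 ± 0.33, adjusted p = 2.3e-12). CLK2 had 70, 86.6 and 87.4 CPM in U937, against 173, 204 and 211 CPM in ML1 (-1.27 ± 0.13, adjusted p = 1.4e-07). CLK4 was lower by 0.87 ± 0.17 on the log2 scale and SRSF5, an SR protein with a pair of RNA recognition motifs, by 0.70 ± 0.13 (adjusted p = 0.00023 and 0.00021). In the other direction SRSF4 had 200, 225 and 200 CPM in U937, against 92.3, 112 and 106 CPM in ML1 (1.01 ± 0.11, adjusted p = 4.5e-07).

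HNRNPA3 was also higher in U937 than in ML1 (0.79 ± 0.14, adjusted p = 0.00011). HNRNPF (0.39) and SRSF11 (0.25) were called higher too, with calls that were lost for HNRNPF without ML1 diluent replicate 3 or U937 diluent replicate 2 (adjusted p = 0.064 and 0.082). SRSF11 lost its call without ML1 diluent replicate 1 or 2 (0.13 and 0.074) or U937 diluent replicate 1 or 3 (0.11 and 0.075). CLK3 was at -0.41 (adjusted p = 0.0091), a call lost without ML1 diluent replicate 2 or 3 (0.051 and 0.054). CLK1 was at -0.46 (adjusted p = 0.051) and was called without ML1 diluent replicate 1 or U937 diluent replicate 3 (adjusted p = 0.022 and 0.026).

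Genes that act with the members were followed in the same comparison of the combination with prexasertib. Over all tested genes 11.9% rose and 17.1% fell in it. Of 10 other kinases and phosphatases of SR proteins, 2 rose and 3 fell. DYRK1B, a dual-specificity kinase, had 15, 14.4 and 14.4 CPM with the combination, against 6.06, 6.88 and 6.47 CPM with prexasertib (1.17, adjusted p = 0.00017), and SRPK3, an SR protein kinase, was at 1.42 (adjusted p = 0.00044). DYRK1A (-0.88, adjusted p = 0.00049) and PPP1R10 (-0.93, adjusted p = 0.0055), a targeting subunit of protein phosphatase, fell. Of 10 cyclin L and related cyclin-dependent kinase genes, 2 rose and 1 fell. The one that fell was CCNL1, a cyclin found in nuclear speckles, with 72.1, 88.7 and 76.4 CPM in combination libraries, against 165, 244 and 131 CPM in prexasertib libraries (-1.18, adjusted p = 0.00011). CCNL1 libraries did not overlap, and its diluent levels were 74, 72.4 and 72.5 CPM. Only 1 of this list rose when any single library was left out, and 2 fell without prexasertib replicate 1.

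Of 44 other splicing regulators 4 rose and 10 fell, beside 11.9% and 17.1% of all tested genes, and without prexasertib replicate 2 the counts were 2 and 5. RBM15 (-1.09, adjusted p = 0.00038), RBM3 (-0.60, adjusted p = 0.0011) and RBMX (-0.50, adjusted p = 0.0036) fell, and MSI2 rose (0.65, adjusted p = 0.0021). Without combination replicate 3, 2 of this list rose. Of 24 SR-related proteins 5 fell and none rose, beside the same shares of all genes, and of these BCLAF1 had the smallest p (-0.67, adjusted p = 0.0035). That count was 1 without prexasertib replicate 2 or combination replicate 1, and 2 without combination replicate 3.

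Core spliceosome genes were counted in the same way, beside the 11.9% of all tested genes that rose and the 17.1% that fell. None of 7 tested Sm protein genes passed in that comparison, 1 of 20 U1, U2 and branch site genes rose and 1 fell, and 1 of 26 U5, tri-snRNP and catalytic genes rose and 7 fell. In the U5 list the fall of CDC5L (-0.64, adjusted p = 0.0031) had the smallest p. Its 7 became 1 without prexasertib replicate 2 or combination replicate 1, and 3 without combination replicate 3. The single calls of the U1 and U2 list, SNRNP70 higher and SNRPA1 lower, were each lost for 5 of the 6 libraries when left out.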

How the data were processed

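For 15 libraries the deposited values are whole-number read counts by gene symbol, not normalized. Per the labels, a TruSeq v2 RNA kit was used. Such libraries carry no strand, so reads from overlapping or antisense genes cannot be told apart. Per the submitters' processing notes, the tools were featureCounts 1.4.6, Bowtie2 2.2.6 and TopHat2 2.0.14, with hg38. The annotation was not given in the sources used here. Groups and replicate numbers came from the labels. Library totals were 49011222 to 87301014 counts.

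Counts were fitted in R 4.3.3 with edgeR 4.0.16 (filterByExpr by group, minimum count 10; TMM; robust quasi-likelihood; 1 model of all 15 libraries, 10 residual degrees of freedom). Each of 6 contrasts was tested over 17243 genes with Benjamini-Hochberg adjustment and called at an adjusted p under 0.05. The fit was tested on simulated data for the combination against prexasertib. Apart from the changed genes, all genes were simulated without a difference between these groups. Of 100 genes changed by 0.58 on the log2 scale, 31 were called in the right direction, and of 100 changed by 1, 91 were. Of all calls 6.87% were false. In the real comparison 29% of genes were called, so the cut-off set by the adjustment differs and these shares do not carry over to it. A gene that was not called is not shown to be unchanged. DESeq2 1.42.0, other scalings, other filters, a fit to the groups compared, a replicate block and leaving out each library were alternatives.

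The members and the 11 gene lists (198 genes, from general knowledge) were chosen with earlier results of these data known. The lists cover kinases and phosphatases of SR proteins, SR-related proteins, cyclin L and related kinases, U1 and U2, U5 and Sm proteins, other splicing regulators, decay factors, hosts of decay-sensitive transcripts, myeloid genes and markers of other cell types. The genes named are all CLK and TRA2 genes, every member called in the combination against prexasertib, in the other comparisons the up to 4 called members each way with the largest change and a mean of at least 5 CPM, and up to 4 called genes of each list by smallest p. Other members are named after their values were seen.

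Pairing was checked by correlating deviations of same-numbered libraries from their group means. For the combination and prexasertib groups r was 0.409, 0.37 and 0.384, above 0.1 in each, so the numbers were taken to pair those libraries. The main fit and the fits with a library left out did not use this pairing. Only the fit with the replicate block used it, with 15 members lower, against 10 in the main fit. All 47 symbols were found in GENCODE v29, and 23900 of 26485 symbols (90.2%) overall. Shared exon length was large for SRSF1 (60.7%), SRSF9 (46.2%), HNRNPUL2 (44.1%) and SRSF2 (36.7%), whose values are uncertain, as are those of HNRNPA1 and its copies.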

Additional observations from a re-analysis of the deposited data

Results flagged for a closer look

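The prexasertib effect, U937 minus ML1, differed for 8 of 39 members (20.5%) by the interaction test in edgeR, beside 24.7% of all tested genes. It was 0.94 for HNRNPR, 0.79 for HNRNPAB, 0.77 for HNRNPUL1, 0.71 for HNRNPF, 0.69 for SRSF10, 0.68 for HNRNPUL2, 0.59 for HNRNPA1L2 and -0.71 for SRSF8 on the log2 scale. For HNRNPF, SRSF10 and HNRNPA1L2 the fold changes had opposite signs, with 0.09, 0.26 and 0.25 in U937, where none was called, and -0.61, -0.43 and -0.35 in ML1, where all 3 were called. SRSF8 was at -0.23 in U937 and 0.47 in ML1. The HNRNPA1L2 difference was not called without ML1 diluent replicate 1, U937 diluent replicate 1 or 3, or U937 prexasertib replicate 2 (adjusted p = 0.063, 0.071, 0.082 and 0.081).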

How the results depend on the processing

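For the combination against prexasertib, 6 members fell at an adjusted p under 0.01 and 6 in a fit to the groups compared, against 10; leaving out 1 library gave 6 to 12 lower and 0 to 1 higher. Against diluent, the 2 higher became 1 at an adjusted p under 0.01 and 1 without the low-count filter, and 1 whichever library was left out. The 7 lower became 1 at an adjusted p under 0.01, 16 with DESeq2 and 21 with the replicate block. They became 2 to 12 with 1 library left out. Of all tested genes 12.0% were lower with the block, against 4.11% without it, and DESeq2 called 1433 of 23300 lower. Upper-quartile scaling moved the median of all genes in this comparison to 0.11 on the log2 scale and the split of all called genes to 1528 higher and 236 lower, against 1186 and 709, with 2 members higher and 6 lower. For prexasertib in U937, the 5 higher became 9 with the replicate block and 3 to 6 with 1 library left out. The 3 lower became 0 at an adjusted p under 0.01, 8 with DESeq2, 5 with DESeq2 size factors, 1 in a fit to the groups compared, 8 with the replicate block, and 0 to 8 with 1 library left out. In U937 with prexasertib, 22.8% of all tested genes were higher and 21.4% lower with the block, against 18.3% and 12.8% without it. DESeq2 called 2813 of 23300 genes lower there. For prexasertib in ML1 no alternative moved the counts of members by over 1.5 times. For the difference between lines, the 7 positive became 4 at an adjusted p under 0.01 and 12 with the replicate block. They became 5 to 8 with 1 library left out. With the block 17.5% of all tested genes were positive, against 12.4% without it. For U937 against ML1 with diluent, the 4 higher became 2 at an adjusted p under 0.01, and leaving out 1 library gave 3 to 4 higher and 13 to 19 lower. The cause of these shifts was not tested, and the replicate numbers of these other comparisons did not all reach a correlation of 0.1 (0.0477 to 0.386). Uncalled values changed sign for CLK2 in ML1 (0.01 with the stricter filter), for CLK3 in the difference between lines (0.04 without ML1 diluent replicate 1; range with 1 library left out -0.23 to 0.04), for TRA2A in U937 with prexasertib (-0.01 without U937 diluent replicate 1, -0.05 without U937 prexasertib replicate 2; range -0.05 to 0.07) and for TRA2A between the lines (0.03, 0 and 0.01 without ML1 diluent replicate 2 or 3 or U937 diluent replicate 1; range -0.08 to 0.03). No called member changed direction under the alternatives run.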

Other observations

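A further list held noncoding host genes whose spliced transcripts are degraded by nonsense-mediated decay. Of 12, 7 rose and none fell with prexasertib in U937, among them SNHG12 (1.57, adjusted p = 0.00036) and ZFAS1 (0.98, adjusted p = 0.00087), both small nucleolar RNA hosts. Over all tested genes 18.3% rose and 12.8% fell in that comparison. In ML1 6 rose and 1 fell, beside 25.3% and 23.5% of all genes, with SNHG12 at 1.71 (adjusted p = 3.6e-05) and ZFAS1 at 1.11 (adjusted p = 5.7e-05). For the combination against prexasertib in U937, 5 of the 12 fell and none rose, beside 17.1% and 11.9% of all genes, and SNHG12 had 33.1, 56.9 and 47.9 CPM, against 61.9, 140 and 83.8 CPM (-1.05, adjusted p = 0.0055). That count was 1 without prexasertib replicate 2, 2 without combination replicate 1 and 3 without combination replicate 2. Of 16 decay and exon junction factors 1 rose and 3 fell in that comparison, and 1 fell without prexasertib replicate 2 or combination replicate 1.

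CCNL1 rose with prexasertib in both lines, by 1.30 in U937 (adjusted p = 4.1e-05) and by 1.84 in ML1 (adjusted p = 1e-07). In ML1 23.5% of all tested genes fell and 25.3% rose with prexasertib. There 6 of 7 tested Sm protein genes fell and none rose, led by SNRPE (-1.09, adjusted p = 1e-05) and SNRPB (-0.98, adjusted p = 2.6e-05), components of the ring that binds spliceosomal RNAs. Of 44 other splicing regulators 21 fell and 7 rose in ML1, with RBFOX2 (-1.56, adjusted p = 1.3e-07) and MBNL3 (-1.15, adjusted p = 1.9e-06) having the smallest p. SRPK1, an SR protein kinase, was at -0.94 in ML1 (adjusted p = 5.8e-05).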
